A study of Mus musculus with 6 samples.

Results

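The motor and cholinergic neuron genes are 9 genes, Chat, Slc18a3, Slc5a7, Ache, Isl1, Mnx1, Esrrg, Chodl and Mmp9. They were chosen by name and found in the deposited tables by their Ensembl gene identifiers, 9 of 35275 genes listed and of 24442 genes with a count. Poly(A) RNA of spinal cord, a tissue in which cells of many types are mixed, was sequenced from 3 Sox2 cKO and 3 Ctrl mice of strain C57BL/6. The Sox2 cKO mice carried mGfap-Cre and Sox2fl/fl, so that Cre recombinase made under a mouse Gfap promoter removes the floxed Sox2 gene in astrocytes, the glial cells in which that promoter is active. Motor neurons are therefore not the intended target of the deletion, and a difference in their genes is one in a tissue whose astrocytes are targeted. The Ctrl genotype is mGfap-Cre:Sox2+/+ in the sample characteristics, mGfap-Cre or Sox2fl/fl in the design text and a Sox2fl/fl littermate in the methods, so whether Ctrl mice carried Cre cannot be told from these sources. Age is also given in 2 ways, as day 90 after birth in the characteristics and day 80 in the design text and methods. RNA integrity numbers were above 6.8 by the labels, and the methods give a higher limit. Both sexes were in each group by the methods, and no library is tied to a sex. The comparison asks which spinal cord genes differ in RNA level when astrocytes lose Sox2.

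The columns of the deposited tables carry numbers and no sample title. By a rule given for this work, even numbers (2, 4 and 6) were read as Ctrl and odd numbers (1, 3 and 5) as Sox2 cKO, which follows the mouse numbers printed under a protein blot of the same groups. No source ties a library to a replicate, and libraries go by their numbers here, with values listed in the order 2, 4, 6 for Ctrl and 1, 3, 5 for Sox2 cKO. Gene counts summed to 22444930, 25015776 and 21983098 for Ctrl against 21507911, 28392184 and 26166638 for Sox2 cKO. Levels of a gene are given as CPM, its counts scaled to library size with TMM factors, and levels of different genes are compared in FPKM, which also divides by gene length. Each gene was tested with edgeR's quasi-likelihood test, with p adjusted over the 16137 genes that passed a filter on low counts, and a gene was called at an adjusted p below 0.05.

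Sox2, the deleted gene, had 19.9, 14.8 and 29.5 CPM in Ctrl against 3.16, 2.69 and 2.98 CPM in Sox2 cKO. All 3 Sox2 cKO libraries lay far below the lowest Ctrl library, Ctrl 4. On the log2 scale the fold change of Sox2, Sox2 cKO over Ctrl, was -2.86 (SE 0.24, edgeR adjusted p = 0.000956). Gfap, the astrocyte filament gene whose promoter drives Cre, had 2373, 2643 and 3506 CPM in Ctrl against 1500, 1185 and 1251 CPM in Sox2 cKO. Its groups did not overlap either, and its log2 fold change was -1.11 (SE 0.15, edgeR adjusted p = 0.0102). Sox2 was called by edgeR whichever library was left out, and Gfap was not called without Sox2 cKO 1, at -1.22 (adjusted p = 0.0585).

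Motor neurons lie in the ventral horn of the spinal cord and send axons out to muscle, where they release acetylcholine. The transmitter is made by choline acetyltransferase (Chat), loaded into vesicles by the vesicular transporter (Slc18a3), broken down after release by acetylcholinesterase (Ache), and its choline is taken back up by the high-affinity transporter (Slc5a7). The same genes serve preganglionic autonomic neurons and a few interneurons of the cord, while Isl1 and Mnx1 are transcription factors of motor neuron identity, and Esrrg, Chodl and Mmp9 mark kinds of motor neurons that differ in the muscle fibers they reach.

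Of the 9 genes, all of which passed the filter, 2 were called lower in Sox2 cKO spinal cord by edgeR, Slc18a3 and Esrrg, where 12.4% of all genes tested were called lower. None of the 9 was called higher (0 of 9), against 12.2% of all genes tested, and 0 of 9 were higher at an unadjusted p below 0.05, where 6391 of the 16137 genes tested had such a p in either direction. DESeq2 also called 2 lower and 0 higher, while with limma, on the log2(FPKM + 1) scale, 0 passed in either direction, and 2 were lower and 1 higher at an unadjusted p below 0.05. The median log2 fold change of the 9 genes was 0.02, and that of all genes tested was 0.02. For 3 of the 9, Ache, Esrrg and Mmp9, no Sox2 cKO value lay within the range of Ctrl or the reverse, where 44.7% of all genes tested had groups without overlap. These shares are those of a list of 9 genes, and nothing about the list as a whole is read from them. For the lists below, the shares of all genes tested are the same, 12.4% called lower and 12.2% called higher by edgeR. In bulk tissue, fewer cells of a type and less RNA per cell cannot be told apart.

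**Figure D1:**
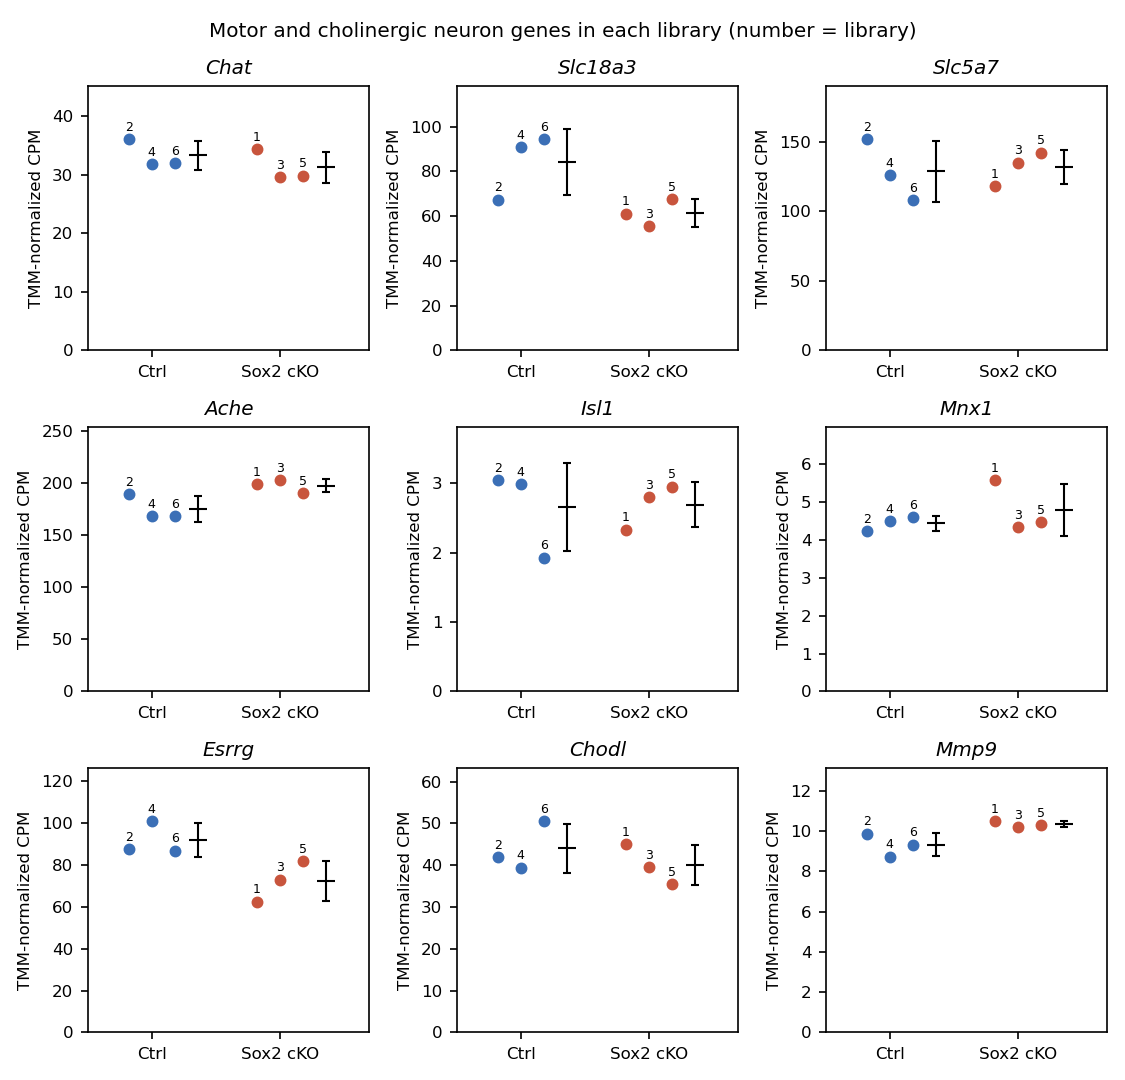
CPM of each of the 9 genes in each library (y axis, from 0), with Ctrl in blue and Sox2 cKO in red, the library number above each point, and the mean with SD (n = 3) in black beside each group. Slc18a3 and Esrrg had lower means in Sox2 cKO, at 61.4 against 84.2 CPM and 72.4 against 91.8 CPM, and the groups overlapped for Chat, Slc18a3, Slc5a7, Isl1, Mnx1 and Chodl.

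Chat (ENSMUSG00000021919, chr14:32408203-32465989, minus strand) makes acetylcholine. It had 36.1, 31.8 and 31.9 CPM in Ctrl against 34.3, 29.6 and 29.8 CPM in Sox2 cKO. Ctrl 2 and Sox2 cKO 1 were the high libraries of their groups and the remaining 4 lay close together, and the groups overlapped. The means were 33.3 ± 2.42 CPM in Ctrl and 31.2 ± 2.66 CPM in Sox2 cKO (SD, n = 3). Its log2 fold change was -0.09 (SE 0.10, edgeR adjusted p = 0.505), with a 95% interval of -0.31 to 0.12, that is, from -19.1% to 8.81%, and it lay between -0.16 (without Sox2 cKO 1) and -0.03 (without Ctrl 2) in the edgeR fits that left out 1 library.

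Slc18a3 (ENSMUSG00000100241, chr14:32462438-32464850, minus strand) lies whole within the first intron of Chat on the same strand. Its single exon shares 0 bases with the 17 exons of Chat in GENCODE M21, and its start lies 1139 bases downstream of the start of Chat, in an intron of 3764 bases. Reads of unspliced Chat RNA over that intron would be counted for Slc18a3, and their part in its level was not tested. The windows of 250 bases before to 50 bases after the RefSeq starts of both genes (build GRCm38.p6) are shown because this locus holds 1 called and 1 uncalled gene with separate starts (chr14:32465860-32466159, minus strand, for Chat, chr14:32464801-32465100, minus strand, for Slc18a3). The first RefSeq window of Esrrg (chr1:187608756-187609055, plus strand), the other called gene, is shown with them. Capitals mark CAAAG or its reverse complement CTTTG, a core that SOX proteins are known to bind, which was searched on both strands and occurs in 53.9% of all 32851 windows of that length. Of the 11 windows RefSeq gives for 8 of the 9 genes, 7 hold it, including all 4 of Esrrg.
Chat: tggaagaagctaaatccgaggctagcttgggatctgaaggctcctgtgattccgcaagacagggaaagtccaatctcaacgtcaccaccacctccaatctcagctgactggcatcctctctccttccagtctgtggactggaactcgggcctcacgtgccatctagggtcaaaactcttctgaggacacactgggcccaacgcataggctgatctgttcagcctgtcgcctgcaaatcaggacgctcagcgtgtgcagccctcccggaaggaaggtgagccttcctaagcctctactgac
Slc18a3: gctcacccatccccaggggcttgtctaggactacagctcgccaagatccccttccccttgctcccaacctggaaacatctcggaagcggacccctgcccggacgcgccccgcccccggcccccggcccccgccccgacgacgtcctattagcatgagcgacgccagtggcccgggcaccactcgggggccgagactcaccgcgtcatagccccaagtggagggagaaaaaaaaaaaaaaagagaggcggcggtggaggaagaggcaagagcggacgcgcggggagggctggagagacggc
Esrrg: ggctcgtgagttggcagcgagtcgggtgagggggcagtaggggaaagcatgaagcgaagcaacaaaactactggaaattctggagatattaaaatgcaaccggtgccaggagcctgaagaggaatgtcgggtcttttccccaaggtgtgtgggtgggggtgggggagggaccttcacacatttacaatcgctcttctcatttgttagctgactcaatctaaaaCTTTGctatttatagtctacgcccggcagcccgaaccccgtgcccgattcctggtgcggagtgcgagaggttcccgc
The letters are not in the windows of Chat and Slc18a3 (67.0% G and C for Slc18a3, 55.7% for Chat), and a match or its absence says nothing of binding.

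Slc18a3 had 67.4, 90.8 and 94.5 CPM in Ctrl against 61.1, 55.5 and 67.6 CPM in Sox2 cKO. Ctrl 4 and Ctrl 6 stood above all other libraries, and Ctrl 2 lay within the range of the Sox2 cKO libraries, so the groups overlapped by 1 library. Slc18a3 fell by 27.1%, a log2 fold change of -0.46 (SE 0.13, edgeR adjusted p = 0.0288) with a 95% interval of -0.74 to -0.17. The call depended on single libraries. It was made without Ctrl 2 (adjusted p = 0.00113) and without Sox2 cKO 5 (adjusted p = 0.0386), but not without Ctrl 4 (0.117), Ctrl 6 (0.101), Sox2 cKO 1 (0.1) or Sox2 cKO 3 (0.103), with log2 fold changes between -0.59 and -0.37. With DESeq2 the call was lost without Ctrl 4 (0.0566), Ctrl 6 (0.0519) or Sox2 cKO 3 (0.0545). Limma gave -0.34 on the log2(FPKM + 1) scale (adjusted p = 0.0738).

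The ratio of Slc18a3 to Chat within a library does not depend on library size. In FPKM it was 2.18, 3.32 and 3.45 for Ctrl against 2.07, 2.18 and 2.64 for Sox2 cKO. Ctrl 2 was again with the Sox2 cKO libraries, and the log2 ratios, compared by exact permutation over the 6 libraries (two-sided), gave p = 0.3, where 3 mice against 3 cannot give less than 0.1. Ratios to Chat were chosen after the data were seen and computed for all 8 other genes, and the unadjusted exact p of 3 of them, Mnx1, Ache and Mmp9, was that smallest value.

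**Figure D2:**
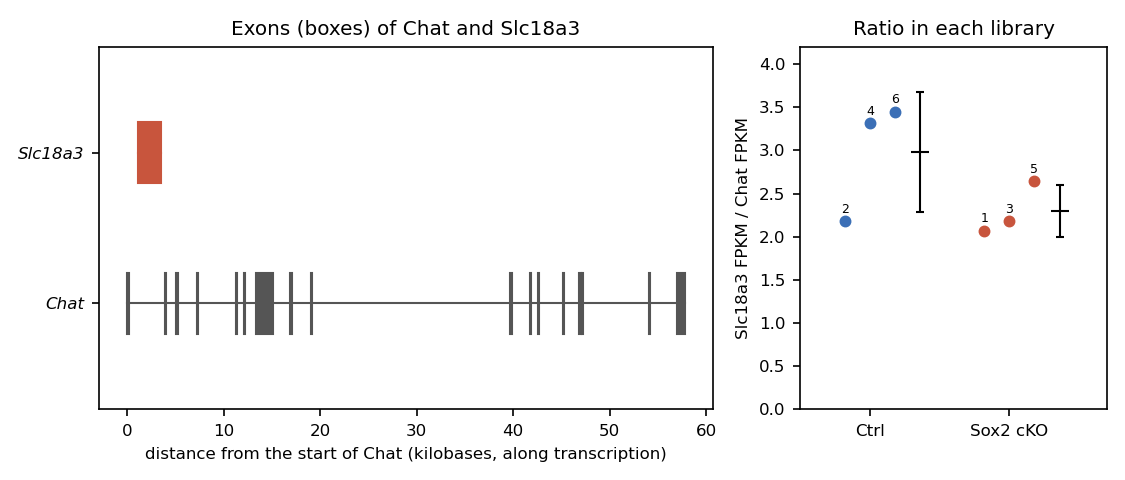
Left, exons (boxes) of Chat and Slc18a3 by distance in kilobases from the start of Chat, with Slc18a3 inside the first intron of Chat. Right, the ratio of Slc18a3 FPKM to Chat FPKM in each library, Ctrl in blue and Sox2 cKO in red, with mean and SD (n = 3), where Ctrl 2 at 2.18 lies among the Sox2 cKO libraries.

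Slc5a7 (ENSMUSG00000023945, chr17:54273590-54299034), the choline uptake transporter, had 152, 126 and 108 CPM in Ctrl against 118, 135 and 142 CPM in Sox2 cKO. The Ctrl libraries enclosed all 3 Sox2 cKO libraries. At a log2 fold change of 0.03 (SE 0.12, edgeR adjusted p = 0.857), its 95% interval was -0.24 to 0.31, and the sign turned when Ctrl 6 (-0.07) or Sox2 cKO 5 (-0.02) was left out. Ache (ENSMUSG00000023328, chr5:137287519-137294466), which breaks acetylcholine down, had 189, 168 and 168 CPM in Ctrl against 199, 203 and 190.3 CPM in Sox2 cKO. All Sox2 cKO libraries were above all Ctrl libraries, by a small margin over Ctrl 2. Its log2 fold change was 0.18 (SE 0.08, edgeR adjusted p = 0.143), with a 95% interval of -0.01 to 0.36, and Ache was called higher only without Ctrl 2, at 0.24 (adjusted p = 0.0255). Ache shares 98 exon bases with the opposite-strand gene Gm42456, and since the strand setting of the counting is not stated, its level is uncertain by reads of that gene. The FPKM ratio of Ache to Chat was 4.0, 4.02 and 4.0 for Ctrl against 4.43, 5.24 and 4.86 for Sox2 cKO (exact permutation p = 0.1, the smallest possible).

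Among the transcription factors, Isl1 (ENSMUSG00000042258, chr13:116298281-116309689), a LIM homeodomain factor of motor neurons, was the lowest of the 9 genes. It had between 40 and 82 counts a library, which were 3.05, 2.99 and 1.93 CPM in Ctrl against 2.33, 2.8 and 2.95 CPM in Sox2 cKO. Ctrl 6 was the lowest library and the groups overlapped. The log2 fold change was 0.02 (SE 0.23, edgeR adjusted p = 0.964). Its 95% interval of -0.49 to 0.52, from -28.9% to 43.7%, was the widest of the 9, and differences inside it are not excluded. The sign of the fold change turned without Ctrl 6 (-0.16), Sox2 cKO 5 (-0.05) or Sox2 cKO 3 (-0.01). Mnx1 (ENSMUSG00000001566, chr5:29473034-29478470), a homeodomain factor of motor neurons, had 4.22, 4.49 and 4.59 CPM in Ctrl against 5.58, 4.33 and 4.46 CPM in Sox2 cKO. Only Sox2 cKO 1 stood above the others, the groups overlapped, and the log2 fold change was 0.11 (SE 0.16, edgeR adjusted p = 0.655), with a 95% interval of -0.26 to 0.47. It was -0.01 without Sox2 cKO 1.

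Esrrg (ENSMUSG00000026610, chr1:187608791-188214885), an orphan nuclear receptor described for gamma motor neurons, had 87.4, 101 and 86.8 CPM in Ctrl against 62.4, 72.9 and 81.8 CPM in Sox2 cKO. The groups did not overlap, with Sox2 cKO 5 nearest to the Ctrl libraries. Esrrg fell by 21.1%, a log2 fold change of -0.34 (SE 0.11, edgeR adjusted p = 0.0417) with a 95% interval of -0.58 to -0.11. The call was lost with upper quartile normalization (-0.30, adjusted p = 0.0508), with limma on log2(FPKM + 1) (-0.23, adjusted p = 0.116) and with a correction for the trend of fold changes with gene length, at -0.18 (adjusted p = 0.184). It was lost too with edgeR without Ctrl 4, at -0.27 (adjusted p = 0.161), or Ctrl 6, at -0.38 (0.0729). The same held without Sox2 cKO 1, at -0.25 (0.143), or Sox2 cKO 3, at -0.35 (0.108). It was made without Ctrl 2, at -0.38 (0.0261), or Sox2 cKO 5, at -0.44 (0.0345). Without Ctrl 6 or Sox2 cKO 3 the fold change was thus not smaller than with all libraries. DESeq2 did not call Esrrg without Ctrl 4, at -0.28 (adjusted p = 0.147), Sox2 cKO 1, at -0.26 (0.116), or Sox2 cKO 3, at -0.36 (0.0656). Esrrg has a length behind its FPKM of 5373 bases, the longest of the 9, and Slc18a3 with 2413 bases is shorter than all but Mnx1. After the same correction Slc18a3 had -0.57 (adjusted p = 0.0291).

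Chodl (ENSMUSG00000022860, chr16:78930948-78951733), a gene of fast motor neurons, had 42, 39.4 and 50.6 CPM in Ctrl against 45, 39.6 and 35.5 CPM in Sox2 cKO. Ctrl 6 was highest and Sox2 cKO 5 lowest, and the groups overlapped. Its log2 fold change was -0.14 (SE 0.12, edgeR adjusted p = 0.414), with a 95% interval of -0.40 to 0.13, and it was -0.02 without Ctrl 6, -0.06 without Sox2 cKO 5, -0.21 without Ctrl 4 and -0.23 without Sox2 cKO 1, called in none of these fits. Mmp9 (ENSMUSG00000017737, chr2:164940780-164955850), a matrix protease of fast motor neurons, had 9.87, 8.73 and 9.32 CPM in Ctrl against 10.5, 10.2 and 10.3 CPM in Sox2 cKO. The 3 Sox2 cKO libraries were nearly equal and above all Ctrl libraries, yet the log2 fold change was 0.15 (SE 0.12, edgeR adjusted p = 0.364), with a 95% interval of -0.11 to 0.41. Mmp9 is also made by neutrophils, whose list is given with the other cell types.

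**Figure D3:**
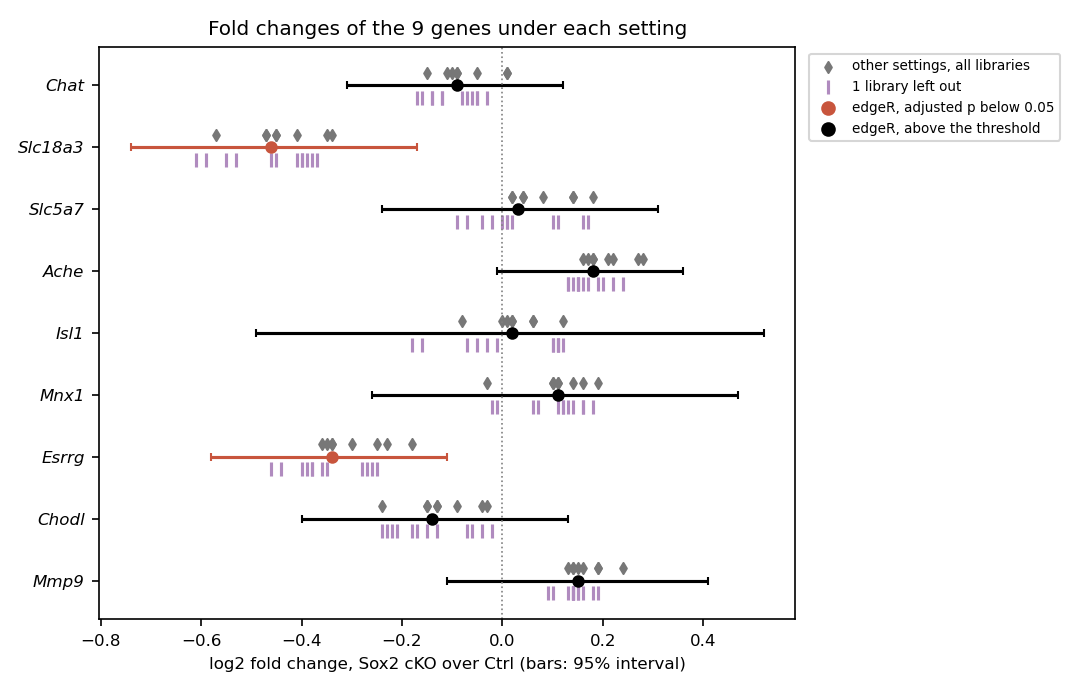
Log2 fold changes, Sox2 cKO over Ctrl, of the 9 genes. Points with bars are the edgeR values with 95% intervals (red where the adjusted p was below 0.05), grey diamonds are other settings with all 6 libraries, and purple ticks are edgeR and DESeq2 fits that left out 1 library, all of which put Slc18a3 and Esrrg below 0.

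Per length, Ache had the highest mean level over the 6 libraries, at 50.7 FPKM (42.8 to 57.2 over the libraries). Slc18a3 followed with 30 FPKM (23.7 to 36.9) and Slc5a7 with 25.2 FPKM (19.7 to 29.1), and the libraries of these neighbours overlapped. Chodl at 16.5 FPKM (14.2 to 18.8), Esrrg at 15.2 FPKM (12.3 to 18.1) and Chat at 11.5 FPKM (10.7 to 12.9) came next, and of these Chodl and Esrrg overlapped, as did Esrrg and Chat. Mmp9 at 3.1 FPKM, Mnx1 at 2.06 FPKM and Isl1 at 1.06 FPKM were lower, with no overlap between these 3. Among all genes tested, the mean level of Ache was at percentile 92.3, that of Chat at 66.8 and that of Isl1 at 18.7. The 3 genes that handle acetylcholine beside Chat were thus each above it per length in every library.

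Over the 6 libraries, Pearson's r of log2 CPM between Chat and the other 8 genes was between -0.05 (Isl1) and 0.44 (Chodl), a description of 6 libraries that share 2 groups. The 5 genes tested whose log2 CPM was most like that of Chat were Pgap2 (r = 0.983), Fndc1 (0.975), Rdh12 (0.973), Ccdc18 (0.972) and Rras2 (0.971), n = 6 libraries. Of the other 16136 genes tested, 38 had an r of at least 0.9 with Chat. With 6 libraries such values say nothing of shared function.

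The other transcription factors of motor neurons numbered 7, all tested, and edgeR called 0 of them, although 4 were lower and 1 higher at an unadjusted p below 0.05, a p that 6391 of 16137 genes had. Without Ctrl 2 edgeR called 5 of the 7, with Pou3f1 at an adjusted p of 0.0201, Foxp1 at 0.0199 and Etv4 at 0.0455 among them, in a fit that called 6119 of all 16590 genes it tested, and without each other library it called 0. Their median log2 fold change was -0.27, against 0.02 for all genes tested, and with the length correction it was -0.01. DESeq2 called 1 lower and limma on log2(FPKM + 1) called 1 higher. The 3 most abundant were Etv4 with 0.34 (adjusted p = 0.0656), Foxp1 with -0.27 (adjusted p = 0.0641) and Pou3f1 with -0.44 (adjusted p = 0.051), where Etv4 is an ETS factor of motor pools, Foxp1 a factor of limb-innervating columns and Pou3f1 a POU factor.

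Of 8 other genes described for alpha motor neurons, the large ones that drive muscle fibers, 1 was called lower and 2 higher, with a median of -0.06. Stk32a, a kinase gene, had 54.8, 62.8 and 75.1 CPM in Ctrl against 32.5, 37.6 and 38.5 CPM in Sox2 cKO, with no overlap and a log2 fold change of -0.83 (SE 0.12, edgeR adjusted p = 0.0119). Spp1, a secreted matrix protein, had 170.2, 143 and 119.6 CPM in Ctrl against 209, 221 and 208 CPM in Sox2 cKO, also without overlap, at 0.56 (SE 0.12, edgeR adjusted p = 0.0145). Calca, which encodes CGRP and is expressed by sensory neurons of dorsal root ganglia too, had 37.5, 19.2 and 11.8 CPM in Ctrl against 54.5, 82.5 and 48 CPM in Sox2 cKO without overlap, at 1.43 (SE 0.34, edgeR adjusted p = 0.0184). The most abundant of the 5 others, Rbfox3 (NeuN), Cdh8 and Sema3e, had 0.15 (adjusted p = 0.24), -0.10 (adjusted p = 0.564) and -0.34 (adjusted p = 0.0537). With the length correction Stk32a and Calca were called and Spp1 was not, at 0.32 (adjusted p = 0.0524).

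Of 8 other genes described for gamma motor neurons, which supply muscle spindles, and for slow motor neurons, 2 were called lower and 1 higher, with a median of -0.10. Gfra1, a receptor subunit for GDNF, had 80.5, 101 and 119 CPM in Ctrl against 54.6, 62.5 and 65.1 CPM in Sox2 cKO, and every Sox2 cKO library was lower, at -0.72 (SE 0.13, edgeR adjusted p = 0.0126). Nrp2, a neuropilin receptor, had 61.7, 68.6 and 69.9 CPM in Ctrl against 45.8, 52.9 and 51.9 CPM in Sox2 cKO, at -0.41 (SE 0.09, edgeR adjusted p = 0.0145), and was not called with the length correction, at -0.16 (adjusted p = 0.103). Prkcd, a protein kinase C, had 18, 17.1 and 12.9 CPM in Ctrl against 25.3, 23.6 and 24 CPM in Sox2 cKO, and every Sox2 cKO library was higher, at 0.60 (SE 0.12, edgeR adjusted p = 0.014). The uncalled Sv2a, Npas1 and Esrrb had -0.17 (adjusted p = 0.159), -0.03 (adjusted p = 0.93) and -0.02 (adjusted p = 0.922). Esrrb, the close relative of Esrrg, thus had a fold change near 0 with a 95% interval of -0.33 to 0.29.

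Of 4 genes of preganglionic neurons and cholinergic interneurons, 1 was called lower. Nos1, the neuronal nitric oxide synthase, which other neurons of the cord express as well, had 73, 89.7 and 92.3 CPM in Ctrl against 50.5, 60.2 and 62.7 CPM in Sox2 cKO, without overlap, at -0.56 (SE 0.11, edgeR adjusted p = 0.0132), and was not called with the length correction, at -0.19 (adjusted p = 0.0679). Slc10a4, a vesicle protein of cholinergic neurons, had -0.12 (adjusted p = 0.393) and Fbn2 -0.33 (adjusted p = 0.167).

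Among 8 genes listed under filaments and axon as abundant in motor neurons, 1 was called lower and 3 higher, with a median of 0.04. DESeq2 called 2 lower and 3 higher. Nefh, the heavy neurofilament, had 1877, 2274 and 2445 CPM in Ctrl against 1589, 1555 and 1667 CPM in Sox2 cKO, at -0.45 (SE 0.11, edgeR adjusted p = 0.0177). Stmn2, Uchl1 and Vsnl1, which are not filament genes, were called higher, at 0.30 (adjusted p = 0.0379), 0.76 (adjusted p = 0.0125) and 0.36 (adjusted p = 0.029). Of the 3 only Uchl1 was called with the length correction. Nefm had -0.28 (adjusted p = 0.0592), Nefl 0.06 (adjusted p = 0.616) and Ina -0.16 (adjusted p = 0.173).

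Of 13 genes for breaking down acetylcholine, anchoring its esterases and moving or using choline, 11 were tested, and 2 were called lower and 1 higher, with a median of -0.16. Lynx1, which binds nicotinic receptors, had 581, 508 and 706 CPM in Ctrl against 463, 291 and 316 CPM in Sox2 cKO, where Sox2 cKO 1 lay close below the Ctrl libraries, at -0.75 (SE 0.17, edgeR adjusted p = 0.0177). Slc44a1, a choline transporter, had 229, 243 and 246 CPM in Ctrl against 188, 187 and 212 CPM in Sox2 cKO, at -0.29 (SE 0.08, edgeR adjusted p = 0.0325), and was not called with the length correction, at -0.20 (adjusted p = 0.0755), or with limma on log2(FPKM + 1), at -0.19 (adjusted p = 0.0713). Chkb, a choline kinase, had 12.1, 9.31 and 8.69 CPM in Ctrl against 22, 18 and 18.6 CPM in Sox2 cKO, at 0.96 (SE 0.14, edgeR adjusted p = 0.0121). Acly, Prima1, the membrane anchor of Ache, and Slc44a2 had -0.16 (adjusted p = 0.19), 0.15 (adjusted p = 0.388) and -0.15 (adjusted p = 0.29).

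Of 16 acetylcholine receptor genes, 12 were tested, and 3 were called lower and 0 higher. Over all genes tested, 12.4% were called lower and 12.2% higher. At an unadjusted p below 0.05, 0 of the 12 were higher, and DESeq2 and limma on log2(FPKM + 1) called 0 higher. DESeq2 called 3 lower, and limma 1. The median log2 fold change was -0.24, and 1 of the 12, Chrnb4, was above 0, at 0.51 (edgeR adjusted p = 0.383). Chrm2, the muscarinic M2 receptor gene, had 82.8, 89.8 and 90.8 CPM in Ctrl against 56.7, 70.3 and 72.1 CPM in Sox2 cKO, at -0.40 (SE 0.10, edgeR adjusted p = 0.0201). Chrna4 and Chrnb2, which form a common nicotinic receptor of the brain, had log2 fold changes of -0.46 (adjusted p = 0.0255) and -0.30 (adjusted p = 0.0356), and each of the 3 had no overlap between groups. Limma on log2(FPKM + 1) called neither, at adjusted p = 0.0644 for Chrna4 and 0.12 for Chrnb2, and Chrnb2 was lost with upper quartile normalization too (0.0526). With the length correction 0 of the 12 were called, and Chrm2 had -0.21 (adjusted p = 0.0748). Chrna7 had -0.35 (adjusted p = 0.182), Chrm3 -0.14 (adjusted p = 0.413) and Chrna2 -0.11 (adjusted p = 0.737). Chrna9 had 0 counts in all 6 libraries. With CPM taken from library totals alone, without TMM factors, this allows up to between 0.106 and 0.139 CPM per library.

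Of 15 genes of neurons in general, 1 was called lower and 1 higher, with a median of -0.01, and 3 were higher at an unadjusted p below 0.05. DESeq2 called 1 lower and 3 higher, and limma on log2(FPKM + 1) 0 lower and 3 higher, with Map2 at an adjusted p of 0.0685. In edgeR, Map2 had -0.35 (adjusted p = 0.0319) and Stmn3 0.45 (adjusted p = 0.017), and neither was called with the length correction. Snap25, Tubb3 and Eno2 had 0.35 (adjusted p = 0.0619), -0.06 (adjusted p = 0.59) and 0.11 (adjusted p = 0.294), of which Snap25 was called higher with that correction, at 0.48 (adjusted p = 0.0401). Log2 fold changes of the genes called in these neuronal and acetylcholine lists kept their sign in every edgeR and DESeq2 fit that left out 1 library, with edgeR from -0.93 to -0.70 for Stk32a and from 0.65 to 0.94 for Uchl1. The number of calls moved with the library left out and with the tool. Whichever library was left out, DESeq2 called Stk32a (highest adjusted p = 5.33e-05), Uchl1 (0.000375), Chkb (0.000496), Gfra1 (0.00133), Spp1 (0.00678), Nos1 (0.00692), Nefh (0.00801), Stmn3 (0.0169), Prkcd (0.0174), Nrp2 (0.022), Chrm2 (0.0338) and Lynx1 (0.0454). Its calls of Calca (up to 0.172) and Chrnb2 (up to 0.128) were made only without Ctrl 2 or with all libraries. DESeq2 also lost Stmn2 without Ctrl 4, Ctrl 6, Sox2 cKO 3 or Sox2 cKO 5 (up to 0.116), Vsnl1 without Ctrl 4 or Ctrl 6 (up to 0.0645), Slc44a1 without Ctrl 4 or Sox2 cKO 3 (up to 0.0631), and Chrna4 (0.0627) and Map2 (0.0574) without Ctrl 4. Without Ctrl 4, edgeR called 26 genes in the whole table, and without Sox2 cKO 1 it called 8, and in both fits 0 of the 9 genes, which had 2 lower and 0 higher at an unadjusted p below 0.05, and 0 genes of the neuronal and acetylcholine lists were called, Stk32a being at -0.84 (adjusted p = 0.0592) without Ctrl 4 and -0.75 (adjusted p = 0.0656) without Sox2 cKO 1. DESeq2 called 1981 and 2342 genes with the same libraries left out, and of the 9 genes 0 and 1 lower. Without Ctrl 6, edgeR still called 3 of the 3 genes called among alpha motor neuron genes, 2 of 3 gamma and slow, 1 of 1 preganglionic and interneuron, 1 of 4 axon, 1 of 3 acetylcholine and choline, 0 of 3 receptor and 0 of 2 general neuron genes. With Sox2 cKO 3 left out it called 2 of the 3 alpha, 3 of 3 gamma and slow, 1 of 1 preganglionic and interneuron, 1 of 4 axon, 1 of 3 acetylcholine and choline, 0 of 3 receptor and 1 of 2 general neuron genes. Leaving out Sox2 cKO 5 lost 2 of the 4 axon, 1 of the 3 receptor and 1 of the 2 general neuron genes, and leaving out Ctrl 2 lost none of those called and brought the calls to 4 alpha, 5 axon, 4 receptor and 4 general neuron genes. Over all genes these fits called 1082 of 16552 without Ctrl 6, 1359 of 16345 without Sox2 cKO 3, 2665 of 16339 without Sox2 cKO 5 and 6119 of 16590 without Ctrl 2, so the raised counts without Ctrl 2 stand in a fit that called more genes overall.

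**Figure D4:**
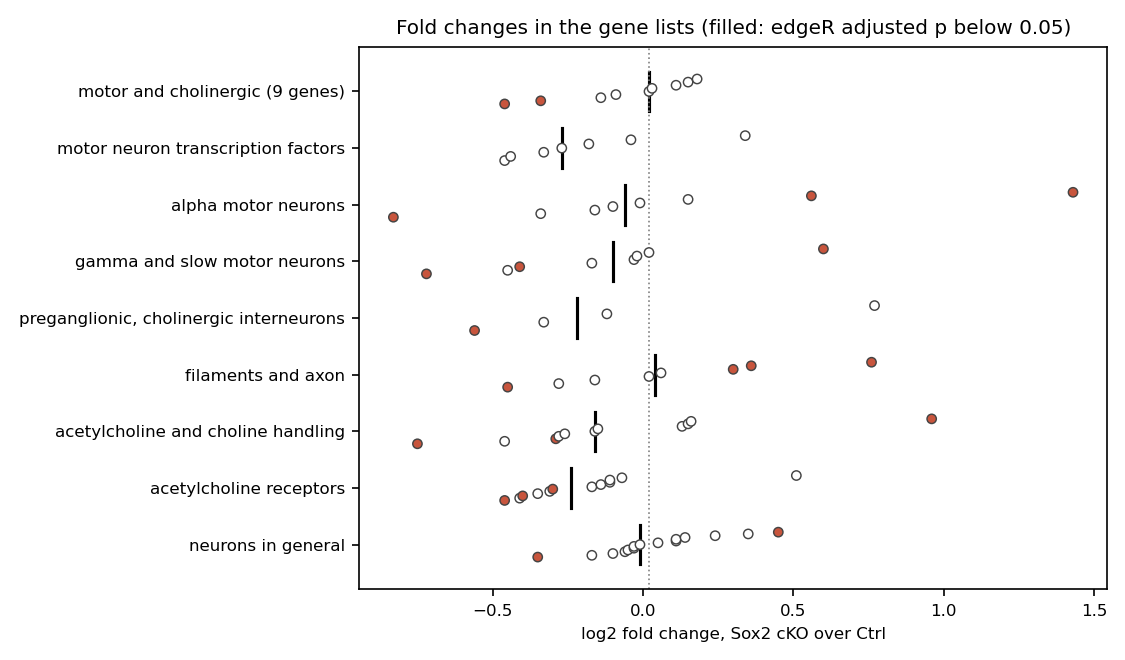
Log2 fold changes, Sox2 cKO over Ctrl, of each tested gene in the 9 genes and the 8 other neuronal and acetylcholine lists, filled where the edgeR adjusted p was below 0.05. Black bars are list medians and the dotted line is the median of all genes tested (0.02). The receptors called all lie below that line, while called genes of the filament and axon list lie on both sides.

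Markers of cells that can reach a spinal cord sample were read in the same libraries. Of 10 neutrophil genes, 8 were tested and 7 called higher, where 12.2% of all genes tested were called higher. The summed level of the list was 20.7, 15.4 and 13.1 CPM in Ctrl against 87.8, 83 and 24.5 CPM in Sox2 cKO. Sox2 cKO 1 and 3 were high and Sox2 cKO 5 was near the Ctrl libraries. The most abundant was S100a8, with 5.74, 3.2 and 3.28 CPM in Ctrl against 20.8, 19.8 and 5.36 CPM in Sox2 cKO, at 1.91 (adjusted p = 0.0172), and S100a9, Lcn2, Ngp, Camp, Mmp8 and Ltf were the others called, at 2.36 (adjusted p = 0.0124), 3.07 (adjusted p = 0.0176), 1.60 (adjusted p = 0.0154), 1.36 (adjusted p = 0.0249), 2.06 (adjusted p = 0.0181) and 1.26 (adjusted p = 0.0411). With the length correction Camp and Ltf were not called, at 0.98 (adjusted p = 0.0873) and 1.18 (adjusted p = 0.0665). DESeq2 called 8 higher and limma on log2(FPKM + 1) 4, with Lcn2 (0.0586) and Ltf (0.0867) not called by limma. Retnlg had 1.81 (adjusted p = 0.0646), and the defining receptor Cxcr2 had 0 to 9 counts and Elane 3 to 21 counts a library. Of the 7, edgeR called 7 without Ctrl 2, 7 without Sox2 cKO 5, 2 without Sox2 cKO 3, 1 without Ctrl 6 and 0 without Ctrl 4 or Sox2 cKO 1. Mmp9, which was not called, had 10.5, 10.2 and 10.3 CPM in Sox2 cKO 1, 3 and 5. The part of neutrophils in its level was not tested.

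Of 10 skeletal muscle genes, 8 were tested and 1 was called higher, while 6 were higher at an unadjusted p below 0.05. Without Sox2 cKO 3 edgeR called 6, in a fit that called 1359 of all 16345 genes, and without Ctrl 2 it called 2, whereas DESeq2 and limma on log2(FPKM + 1) called 0 with all libraries, although DESeq2 called Mylpf without Sox2 cKO 3, at 2.37 (adjusted p = 1.63e-06). Their sum was 15.7, 10 and 9.22 CPM in Ctrl against 38.2, 6.65 and 81.3 CPM in Sox2 cKO, high in Sox2 cKO 5 and 1 only. The most abundant per length was Mylpf, at 1.91 (adjusted p = 0.0466), followed by Tnnt3, Acta1 and Ckm at 2.26 (adjusted p = 0.0706), 1.84 (adjusted p = 0.0833) and 1.54 (adjusted p = 0.192), and Chrng had 0 counts in all libraries but Ctrl 2, where it had 1. Mylpf was not called without Ctrl 4 (0.156), Ctrl 6 (0.114), Sox2 cKO 1 (0.102) or Sox2 cKO 5, where its log2 fold change was 0.88 (0.191), nor with the length correction, at 1.55 (adjusted p = 0.115). Ache and Esrrg are expressed in muscle too.

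Of 10 genes of dorsal root ganglion neurons, 5 were tested and 1, Tlx3, was called higher, at 0.81 (adjusted p = 0.0325), but not without Ctrl 4 (0.0997), Ctrl 6 (0.102), Sox2 cKO 1 (0.124) or Sox2 cKO 3 (0.109), nor with the length correction, at 0.56 (adjusted p = 0.107). Their sum was 15.2, 29.3 and 18.6 CPM in Ctrl against 18.5, 18.9 and 21.9 CPM in Sox2 cKO, with Pou4f1, P2rx3 and Avil at -0.22 (adjusted p = 0.292), 0.07 (adjusted p = 0.858) and -1.05 (adjusted p = 0.229). Tlx3, the most abundant per length, is also made in the dorsal horn, whereas Scn10a, which defines ganglion neurons, had 95 counts in Ctrl 4, 44 in Sox2 cKO 5 and 1 to 4 in each other library, and Mrgprd had 0 counts in Ctrl 2, Ctrl 6 and Sox2 cKO 3. Calca was highest in Sox2 cKO 3, where Scn10a had 4 counts, and the part of ganglion neurons in the level of Calca was not tested. Of 6 Schwann cell genes of nerve roots, all tested, edgeR called 0, with 0 at an unadjusted p below 0.05 in either direction and 0 called by DESeq2 or limma on log2(FPKM + 1). Without Ctrl 2 edgeR called 1 of them, Pmp22 (adjusted p = 0.00974). Their sum was 204, 161 and 122 CPM in Ctrl against 204, 176 and 182 CPM in Sox2 cKO, with Ctrl 6 lowest, and Pmp22, the most abundant, and Prx had 0.18 (adjusted p = 0.276) and -0.21 (adjusted p = 0.65). The part of these cells in the results on the 9 genes was not tested.

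**Figure D5:**
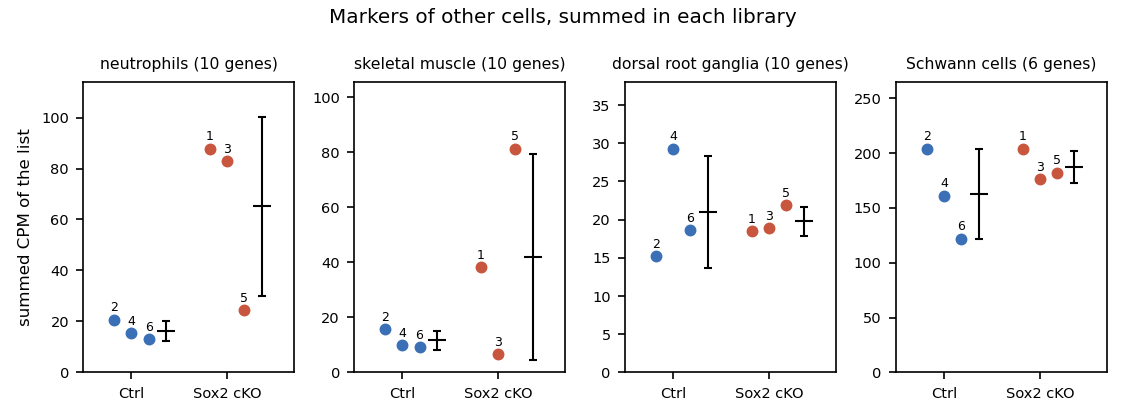
Summed CPM (y axis, from 0) of marker lists of 4 other cell types in each library, with Ctrl in blue, Sox2 cKO in red, library numbers above the points and the mean with SD (n = 3) in black. Neutrophil genes were high in Sox2 cKO 1 and 3 and muscle genes in Sox2 cKO 5 and 1.

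The tissue label, spinal cord with no level named, was read against HOX genes, which differ along the cord from neck to tail. Of 11 listed, 7 were tested, and 1 was called higher, Hoxc4, at 0.36 (adjusted p = 0.0401), which was called only in the fit of all libraries and without Ctrl 2 (0.00288), and not with the length correction, at 0.22 (adjusted p = 0.137). The most abundant others were Hoxc8, Hoxc6 and Hoxc5 at -0.05 (adjusted p = 0.773), 0.25 (adjusted p = 0.168) and 0.19 (adjusted p = 0.14), and Hoxc6 was called without Ctrl 2 (0.00922). Limma on log2(FPKM + 1) called 2 of the list higher. Hoxc8 was the most abundant per length, with 190.1, 154 and 167 CPM in Ctrl against 165, 139 and 189 CPM in Sox2 cKO. Hoxc11, Hoxd10 and Hoxd11, genes of the lumbar and sacral cord, had 0 counts in all 6 libraries, and Hoxa11 had 0 to 3 counts. Hoxc10, a gene of the lumbar cord as well, had 6 to 36 counts, which were 0.359, 0.249 and 0.531 CPM in Ctrl against 0.615, 0.614 and 1.36 CPM in Sox2 cKO. All Sox2 cKO libraries were above all Ctrl libraries, at a log2 fold change of 1.19 (SE 0.46, edgeR adjusted p = 0.0823) with a 95% interval of 0.17 to 2.22, and Hoxc10 was not called. Hoxa10 had 20 to 32 counts, at 0.04 (adjusted p = 0.942). Whether the libraries held the same levels of the cord cannot be told from so few counts. A count of 0 allows up to the same 0.106 to 0.139 CPM, again from library totals without TMM factors. Of 4 forebrain genes, 1 was tested, and Emx1 and Tbr1 had at most 5 counts a library, while Neurod6 had 0.06 (adjusted p = 0.885).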

How the data were processed

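Spinal cord RNA, from 3 mice a group, was read by single-end RNA-seq with a directional poly(A) kit. The authors aligned reads to mm10 with STAR 2.5, counted reads per gene with HTSeq 0.6.1 and deposited these counts without normalization. FPKM values were deposited as well, computed by the authors from counts, gene lengths and totals. Strand use in counting is not stated. Columns were grouped by number under the rule given for this work. As a check, group means of median-of-ratios normalized counts were compared with a supplementary gene list that names the groups, and 1999 of 1999 genes matched within a relative difference of 0.0001. Columns carry no replicate number.

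The test of these counts was that of edgeR 4.0.16 under R 4.3.3 (filterByExpr, TMM, quasi-likelihood test, no covariate, Benjamini-Hochberg over all 16137 genes tested, threshold 0.05). Libraries held 21507911 to 28392184 counts, and limits from counts cover counting error only. DESeq2 1.42.0, limma 3.58.1 on log2 FPKM with a pseudocount of 1 or 0.1 (genes whose FPKM averaged 0.5 or more), 2 other normalizations, 2 other filters, a lowess correction for gene length with a span of 0.3, and fits leaving out each library were alternatives. Fits were tested on simulated data, where each recovered most but not all of the changed genes, and the share of false calls lay above the threshold in every fit and was highest with DESeq2, so calls close to the threshold are less certain than their adjusted p. The recovery asked of edgeR was lowered after a first run fell short of it. Names and positions came from GENCODE M21, with 34490 of 35275 identifiers matched. Exact permutation tests used scipy 1.17.1. Mice are separate animals. The members and lists were chosen with earlier results of these data known. Named are the 9 genes, Sox2, Gfap, in each list every gene called and up to 3 others with the highest mean FPKM, and the 5 genes most like Chat, except a few that are not reported here. Other names were chosen after their values were seen.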

Additional observations from a re-analysis of the deposited data

How the results depend on the processing

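Over all genes, edgeR called 3970 genes, of which 2008 were lower and 1962 higher. The gene length correction gave 2109. With upper quartile normalization 1652 were lower and 2313 higher, and with limma 915 genes were lower and 2670 higher on log2(FPKM + 1), 896 and 2614 with a pseudocount of 0.1, where the median of all genes was 0.11 in place of 0.02. Limma was run on the deposited FPKM, which carry no TMM factors. These factors were 0.9938, 0.9623 and 0.943 for Ctrl against 1.06, 1.033 and 1.013 for Sox2 cKO. Fits that left out 1 library called between 8 and 6119 genes with edgeR and between 1981 and 5624 with DESeq2. Of the 9 motor and cholinergic genes, 2 were called lower, but 1 with upper quartile normalization, 1 with the length correction and 0 with limma on log2 FPKM with either pseudocount. Fits without 1 library called between 0 and 2 lower and between 0 and 1 higher. The causes were not tested.

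Slc18a3 and Esrrg were lower under every alternative run. Signs turned, always for genes not called, as follows. Chat had 0.01 in limma on log2(FPKM + 1) and 0.01 with a pseudocount of 0.1. With the length correction Isl1 had -0.08 and Mnx1 -0.03. Without 1 library, Slc5a7 ranged from -0.09 to 0.17, Isl1 from -0.18 to 0.12 and Mnx1 from -0.02 to 0.18. Of 180 pairs of a gene of the 9 and an alternative, 141 kept direction and side of the threshold. Isl1, with 40 to 82 counts a library, had the fewest counts of the 9 and so the largest counting error. No paired analysis was possible because the columns carry no replicate numbers.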
